A study of Homo sapiens with 5 samples.

Results

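PHF8 peaks on chromosome 6 were described by chromosome arm in SKMEL-147 melanoma cells. All peaks of chromosome 6 in the 3 deposited peak lists were taken and split at the centromere of hg19, with peaks ending before 58.8 Mb assigned to the short arm (6p) and peaks starting after 62 Mb to the long arm (6q). The lists held 3430 chromosome 6 peaks of 62508 in all, 2030 on 6p and 1400 on 6q, and 0 fell in neither arm. Chromatin of this established human melanoma cell line was crosslinked and sonicated, and PHF8 was immunoprecipitated (anti-PHF8, Abcam ab36068) in 3 replicates named A, B1 and B2, beside 2 input libraries named A and B. The cells carried no labelled treatment, so every replicate stands for the same condition. Nothing in the labels says that the replicates came from separate cultures, so the spread between them may be technical, and which input was set against which replicate is not given in the sources used here. With 2 inputs for 3 replicates, at least 2 replicates were set against the same input if each was set against one of these. Of the peaks of each list, chromosome 6 supplied 1178 of 21506 (A), 1153 of 20882 (B1) and 1099 of 20120 (B2).

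PHF8 is a histone demethylase that removes repressive methyl marks from histone tails. Its PHD finger reads trimethylated lysine 4 of histone H3, a mark of active promoters, and it is known to sit mostly at CpG-rich transcription start sites (TSSs). Chromosome 6 is of interest in this cell type because melanomas often gain the short arm, which carries the major replication-dependent histone gene clusters and the major histocompatibility complex (MHC), and often lose parts of the long arm.

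Promoters among the strongest of each arm are shown first because they give the sequence type on which PHF8 was found. Each line holds 151 bases of the plus strand of hg19 centred on the summit of replicate A, and capitals mark every CG dinucleotide. On 6p these were the promoters of MYLIP, a ubiquitin ligase gene (chr6:16129373-16129523, in exonic sequence outside the coding part, 46 bp from the nearest annotated TSS) and ABCC10, a drug efflux transporter gene (chr6:43395694-43395844, in a coding exon, 175 bp from the TSS).
MYLIP: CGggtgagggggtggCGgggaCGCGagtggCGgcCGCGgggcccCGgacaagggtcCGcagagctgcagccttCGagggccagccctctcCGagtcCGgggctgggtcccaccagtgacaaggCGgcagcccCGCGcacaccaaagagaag
ABCC10: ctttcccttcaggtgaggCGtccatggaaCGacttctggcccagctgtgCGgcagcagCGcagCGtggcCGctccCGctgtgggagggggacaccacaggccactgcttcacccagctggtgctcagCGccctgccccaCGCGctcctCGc
On 6q they were the promoters of MTRES1, a mitochondrial transcription rescue factor gene (chr6:107349474-107349624, in exonic sequence outside the coding part, 132 bp from the TSS) and the pair SOD2, the mitochondrial superoxide dismutase gene, and WTAP, an RNA methylation complex gene (chr6:160148202-160148352, in an exon of both, 108 bp from the SOD2 TSS).
MTRES1: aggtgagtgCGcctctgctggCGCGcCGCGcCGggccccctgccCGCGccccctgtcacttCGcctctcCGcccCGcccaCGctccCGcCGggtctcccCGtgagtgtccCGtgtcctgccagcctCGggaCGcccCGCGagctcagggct
SOD2 and WTAP: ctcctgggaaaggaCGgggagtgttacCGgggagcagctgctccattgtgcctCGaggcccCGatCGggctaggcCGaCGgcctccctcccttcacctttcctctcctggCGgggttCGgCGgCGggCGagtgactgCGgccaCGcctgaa
The short-arm stretches held 15 and 11 CG dinucleotides and the long-arm stretches 20 and 14. The MYLIP peak had a fold enrichment (ChIP over expected background at the summit) of 64.3, 37.8 and 41.5 in replicates A, B1 and B2, an order of replicates kept below. RPP21, a ribonuclease P subunit gene, had 58.4, 41.2 and 36.2 and ABCC10 62.9, 33.8 and 34.5. STK38, a kinase gene (56.0, 40.0 and 33.4), and MCUR1, a mitochondrial calcium uptake gene (59.6, 37.2 and 32.2), completed the 5 strongest of 6p. On 6q MTRES1 had 52.2, 29.7 and 32.9, SNX14, a sorting nexin gene, 51.2, 29.4 and 29.0, and SOD2 and WTAP 52.2, 26.6 and 31.2. CYB5R4, a cytochrome b5 reductase gene (49.2, 28.6 and 28.6), and OSTM1, a lysosomal chloride transport gene (60.4, 24.2 and 26.7), followed. The 5 leading regions of 6p had mean percentiles of 97.6 to 99.1 within their lists and those of 6q 91.3 to 94.9, so every leading region of 6p ranked above that of 6q.

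The first comparison was the number of peaks per annotated TSS, counting each pair of a gene and a distinct transcript start. The arms were matched in TSSs, with 5165 on 6p and 5170 on 6q, while 6p held 617 protein-coding genes and 6q 431. The short arm carried 704, 683 and 643 peaks in replicates A, B1 and B2, and the long arm 474, 470 and 456. Expressed per 100 TSSs, 6p had 13.6, 13.2 and 12.4 peaks. The long arm had 9.17, 9.09 and 8.82 peaks per 100 TSSs, close to the 9.68, 9.39 and 9.06 of all other chromosomes. The replicate values of the arms did not overlap, and the lowest short-arm value exceeded the highest long-arm value. The log2 ratio of 6p to 6q was 0.54 ± 0.04 (SD, n = 3), a 1.45-fold higher density on 6p in 3 of 3 replicates (exact two-sided sign-flip permutation p = 0.25). With 3 replicates 0.25 is the smallest p this test can give, so no arm difference could pass 0.05. Adjusted over the 7 arm comparisons by the Benjamini-Hochberg method, p was 0.292 in the exact test for each comparison whose sign was the same in 3 of 3 replicates.

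Among 41 chromosome arms, 6p ranked 2 in peaks per 100 TSSs in every replicate, behind 19p with a mean of 13.5, and the middle arm had 8.98. The long arm ranked 20. Per Mb of sequence the log2 ratio of 6p to 6q was 1.42, since 6p holds its TSSs on 58.7 Mb and 6q on 108.6 Mb. Per TSS of protein-coding genes alone the log2 ratio was 0.36. Merged over replicates, 6p had 710 regions, of which 517 (72.8%) were found in all 3 replicates, and 6q had 465, of which 344 (74.0%) were. The median gap between neighbouring regions was 15.6 kb on 6p and 68.9 kb on 6q. The longest stretch without a peak on 6q ran from 64346528 to 69344595, 5.00 Mb with 2 protein-coding genes, against 2.63 Mb with 14 protein-coding genes on 6p.

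**Figure D1:**
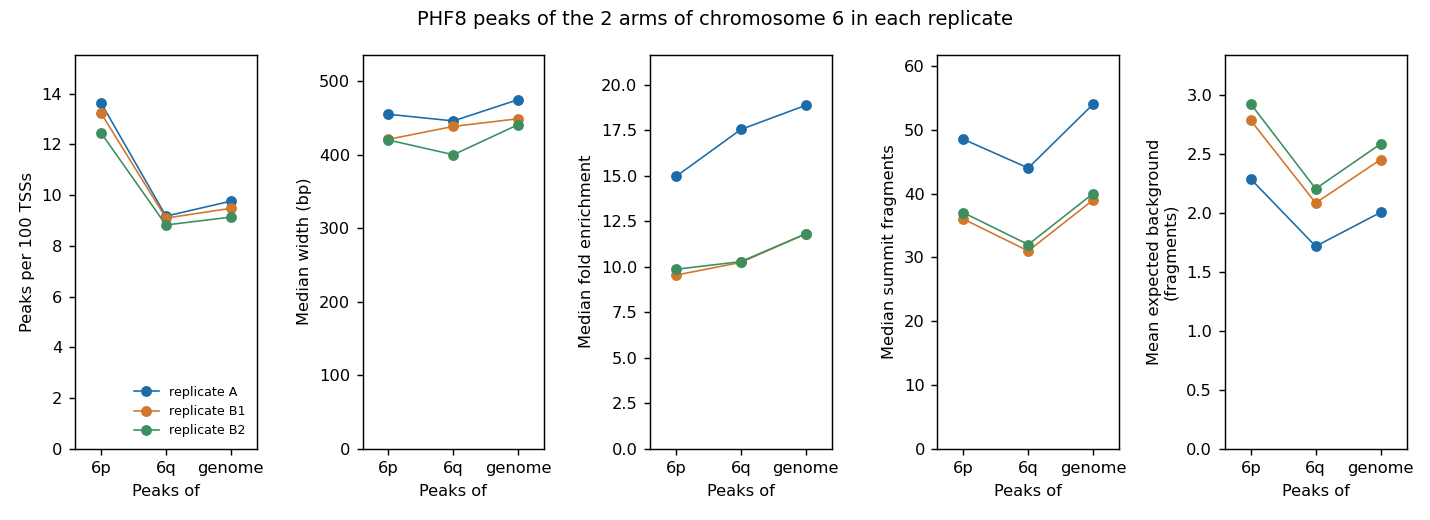
Each panel gives 1 measure (vertical axis, units on the axis) for the peaks of 6p, 6q and the whole genome, with a point for each of the 3 replicates joined by a line. Peaks per 100 TSSs and the mean expected background were higher on 6p than on 6q in 3 of 3 replicates, while the median fold enrichment was lower.

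Over all peaks, width did not separate the arms. The median width on 6p was 455, 421 and 420 bp, and on 6q it was 446, 438.5 and 400 bp. The replicate values of the arms overlapped and their order differed between replicates. The log2 ratio was 0.01 ± 0.07 (SD, n = 3; exact sign-flip permutation p = 0.75), and its sign turned when replicate B2 was left out (log2 ratio -0.01). Among subsets of peaks the short arm was wider in 3 of 3 replicates, with a log2 ratio of 0.18 without the histone and MHC part at 25 to 34 Mb, 0.17 among summits with CpG-island-like sequence and 0.07 among peaks at TSSs.

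The peak values gave opposite orders depending on the measure. Fold enrichment had a median of 15.0, 9.54 and 9.86 on 6p. On 6q the medians were 17.5, 10.2 and 10.3, higher in each replicate. The log2 ratio of 6p to 6q was -0.13 ± 0.09 (SD, n = 3; exact sign-flip permutation p = 0.25), and both arms lay low among the 41 arms, 6p at rank 39 and 6q at rank 36. The number of ChIP fragments at the summit, recovered from the deposited fold enrichment and p-value, went the other way. Its median was 48.5, 36 and 37 fragments on 6p, and 44, 31 and 32 fragments on 6q. Short-arm summits thus held 1.14-fold more fragments (log2 ratio 0.19 ± 0.04, SD, n = 3; exact sign-flip permutation p = 0.25) while their fold enrichment was lower. Whole-genome medians were 54, 39 and 40 fragments, above both arms in each replicate. The order of fold enrichment depended on which peaks were counted. Among peaks found in all 3 replicates the log2 ratio was -0.01, and without the histone and MHC part at 25 to 34 Mb it turned to 0.05.

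The measure that set the arms apart most evenly was the expected background. For each summit the peak caller sets the ChIP fragments against an expectation that is the larger of a genome-wide value and the local input signal, so the recovered expectation cannot fall under the genome-wide value. The mean expected background was 2.29, 2.79 and 2.93 fragments on 6p, and 1.72, 2.09 and 2.21 on 6q. The lowest short-arm mean exceeded the highest long-arm mean, with 1.33-fold more expected fragments on 6p in 3 of 3 replicates (log2 ratio 0.41 ± 0.01, SD, n = 3; exact sign-flip permutation p = 0.25). Replicates set against the same input do not give independent backgrounds, so the spread here may be too small. Peaks whose background exceeded the genome-wide value made up 77.0%, 75.8% and 76.4% of 6p peaks. They made up 23.4%, 20.9% and 21.5% of 6q peaks. Across all peaks of the genome the shares were 64.2%, 61.8% and 62.6%, so 6p lay above and 6q far below them, at ranks 15 and 36 of 41 arms. Copy number was not measured here, and its part in the background was not tested.

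On 6p the raised background came from a bounded stretch. The limits of this stretch and of those named beside it were chosen after the background had been seen, so the values are a description. All 18 of the 1 Mb bins that held peaks between 21 and 41 Mb had at least 80% of their peaks above the genome-wide value in every replicate. Within the stretch 397 of 403, 377 of 381 and 362 of 366 peaks lay above it. On the rest of 6p the counts were 145 of 301, 141 of 302 and 129 of 277. The mean background relative to the genome-wide value was 1.68, 1.66 and 1.62 in the stretch and 1.17, 1.17 and 1.18 on the rest of the arm. The stretch ran beyond the histone and MHC part on both sides, with 19 of 19, 17 of 17 and 15 of 15 peaks raised at 21 to 25 Mb and 72 of 72, 75 of 75 and 70 of 70 at 34 to 41 Mb. Peaks of every kind took part, with 98.6% ± 0.335 (SD, n = 3) of those at TSSs and 100% of those elsewhere above the genome-wide value. On 6q the corresponding shares were 21.5% ± 0.60 and 24.7% ± 9.31.

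The stretch lay between peaks at the genome-wide background. The last such peak before it lay at 20404075, 20403416 and 20404035, at the promoter of E2F3, which codes for a cell cycle transcription factor. The first such peak after it lay at 41395824, 41395758 and 41395812. Listed cancer genes give the values along the arm. The background under the peak taken for E2F3 was 1.57, 1.93 and 2.07 fragments, with summits at 20403502, 20403416 and 20403539. In A and B2 this was another peak than the one at the edge. Its B2 value counted as above the genome-wide value. At SOX4, a developmental transcription factor gene inside the stretch, it was 3.51, 4.53 and 4.83, above the mean of the stretch. At TFEB, a lysosomal transcription factor gene beyond the far edge, it was 1.57, 1.93 and 2.04, the genome-wide value in each replicate. Some listed genes outside 21 to 41 Mb also lay above the genome-wide value. The background was 2.01, 2.03 and 2.67 fragments at CDKAL1, a tRNA-modifying enzyme gene between E2F3 and the stretch, and 2.01, 1.97 and 2.08 at CCND3, which codes for cyclin D3, beyond TFEB. At DUSP22, a phosphatase gene near the end of the arm, it was 2.29, 4.25 and 5.33.

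A shorter stretch on 6q also had a raised background. At 79 to 89 Mb 45 of 53, 39 of 47 and 34 of 45 peaks were above the genome-wide value, with a mean relative background of 1.34, 1.33 and 1.29. From 89 Mb to the end of the arm the shares were 16.3%, 13.1% and 15.1%, and from 62 to 79 Mb 8.82%, 24.2% and 20.6%. Without the stretch at 21 to 41 Mb the log2 ratio of mean background between the arms fell from 0.41 to 0.11 and the log2 ratio of fold enrichment turned from -0.13 to 0.06. The log2 ratio of summit fragments was 0.15 without it. The log2 ratio of peaks per TSS was 0.49 without it, so the peak density of 6p did not rest on that stretch.

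**Figure D2:**
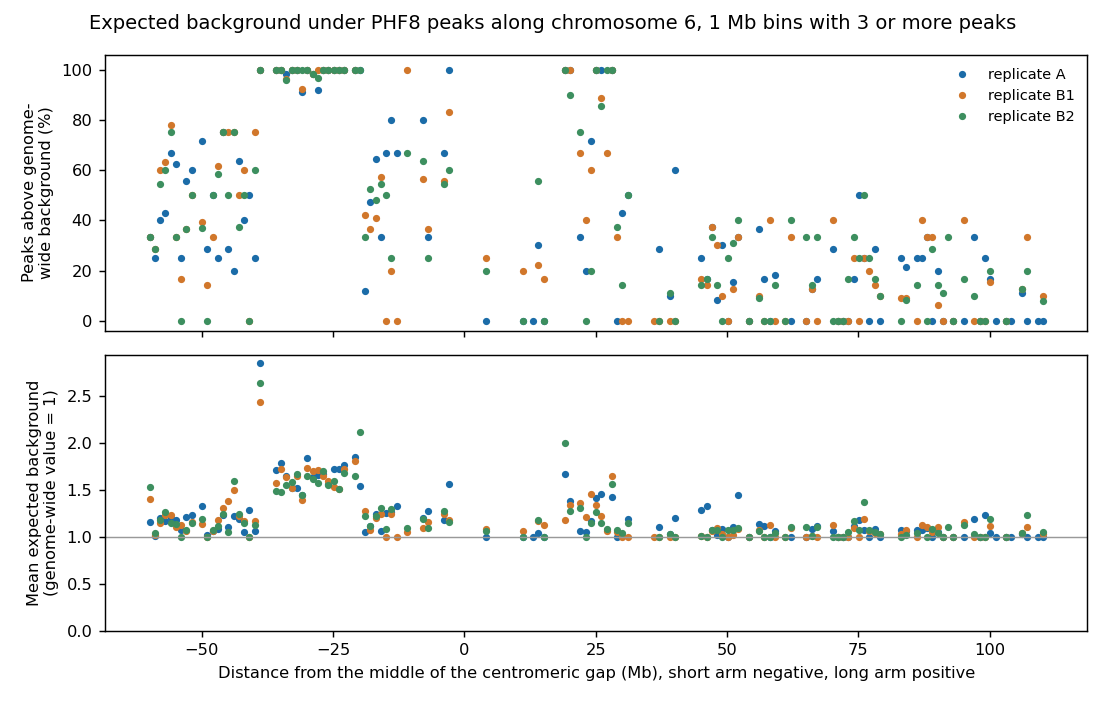
Share of peaks above the genome-wide background (upper panel, percent) and mean expected background relative to the genome-wide value (lower panel, grey line at 1) in 1 Mb bins with 3 or more peaks, against distance from the middle of the centromeric gap in Mb, with a point for each replicate. A block on the short arm lies near 100% with a mean of about 1.65 times the genome-wide value, and most of the long arm lies near 1.

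Fold enrichment and summit fragments parted within the stretch. Among peaks whose summit sequence was CpG-island-like (GC of at least 0.5 and observed over expected CpG of at least 0.6 within 250 bp on either side), the median number of fragments was 72, 48 and 51 inside the stretch. It was 65, 43 and 43 on the rest of 6p and 53, 34 and 35 on 6q. Inside the stretch the median fold enrichment of these peaks was 20.2, 12.7 and 12.5, and on the rest of 6p 24.5, 14.0 and 13.0. Among these peaks the stretch thus had the most fragments of the 3 in each replicate and a lower fold enrichment than the rest of 6p. Over all peaks the median number of fragments was 48, 37 and 39 inside the stretch and 50, 34 and 35 on the rest of 6p. At TSSs it was 56, 41.5 and 43 against 59.5, 39.5 and 39, so in both of these counts the order in replicate A was the opposite. On 6q the median fold enrichment of CpG-island-like peaks was 20.3, 11.3 and 11.2. With CpG-island-like summits alone, the log2 ratio of 6p to 6q was 0.41 for summit fragments and 0.19 for fold enrichment, so the order of fold enrichment turned.

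Across the 41 arms the relative background and the median number of fragments moved together (Spearman's rho 0.70 over means of 3 replicates, with arms sharing library and depth). The short arm lay under this trend, with a relative background of 1.44, rank 8, and a median of 40.5 fragments, rank 32. The long arm was low in both, at ranks 36 and 39. Over the 861 chromosome 6 regions found in all 3 replicates, the summit fragments of replicate pairs had a Spearman's rho of 0.94 to 0.95 and the expected background of 0.56 to 0.78.

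**Figure D3:**
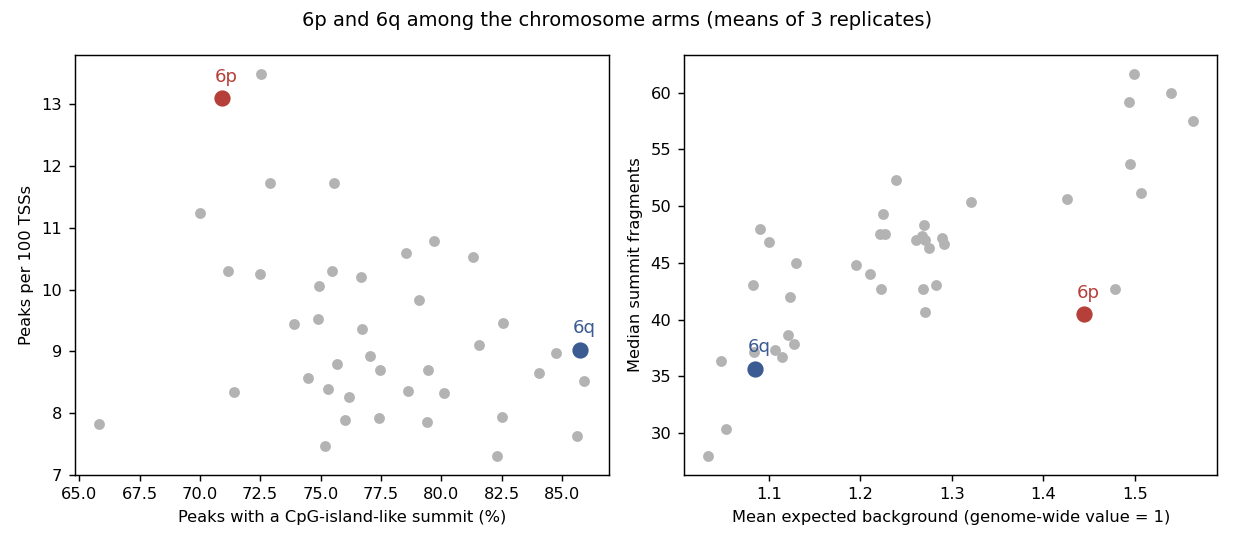
Each point is 1 of 41 chromosome arms (means of 3 replicates), with 6p in red and 6q in blue. The left panel sets peaks per 100 TSSs against the percentage of peaks with a CpG-island-like summit, where 6p is high and to the left and 6q far to the right, and the right panel sets median summit fragments against mean expected background relative to the genome-wide value.

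Along the chromosome, 10 Mb bins differed in peak density and in peak strength. The densest bin of 6p was 20 to 30 Mb with 16.7 ± 1.38 peaks per 100 TSSs (SD, n = 3), and the sparsest was 50 to 60 Mb with 10.6 ± 0.511. The bin at 10 to 20 Mb, with 15.5 ± 1.05, did not differ from the densest beyond the spread. On 6q the densest bin was 110 to 120 Mb with 11.6 ± 0.764 and the sparsest 160 to 170 Mb with 6.58 ± 0.748, among bins with at least 20 peaks. The sparsest short-arm bin differed from the densest long-arm bin by about the spread between replicates. These ranks hold per TSS. Per 100 annotated genes the bin at 20 to 30 Mb had 36.3 ± 2.98 peaks (SD, n = 3). That was below 49.3 ± 1.77 at 30 to 40 Mb and 43.0 ± 2.91 at 10 to 20 Mb. It was also below 40.2 ± 2.85 at 0 to 10 Mb and 39.4 ± 2.04 at 40 to 50 Mb. The densest bin of 6p therefore depended on the denominator, while 50 to 60 Mb was the sparsest in both counts. The bin at 20 to 30 Mb, which holds the histone clusters, had the most peaks per TSS of the 6 short-arm bins and also the narrowest and weakest. Its median width was 355 bp ± 24.8 and its median summit 29.8 fragments ± 3.33 (SD, n = 3). The next bin, 30 to 40 Mb, had a median of 53.0 fragments ± 10.6, and 40 to 50 Mb had the widest peaks at 581 bp ± 78.7. The 1 Mb bins with the most peaks were at 31 Mb in the MHC (60, 55 and 56 peaks) and at 26 Mb in the histone cluster (57, 52 and 49). The fullest 1 Mb bin of 6q held 15, 16 and 14 peaks. The strongest promoter peak of the densest short-arm bin was that of MRS2, a mitochondrial magnesium channel gene, with a fold enrichment of 47.0, 28.5 and 26.5. In the sparsest it was that of TMEM14A, a mitochondrial membrane protein gene, with 48.2, 33.6 and 27.8. The corresponding genes of 6q were GTF3C6, an RNA polymerase III factor gene, with 46.8, 27.6 and 25.1, and WTAP with 52.2, 26.6 and 31.2. All 4 lay at mean percentiles between 89.9 and 93.6, in dense and sparse bins alike.

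**Figure D4:**
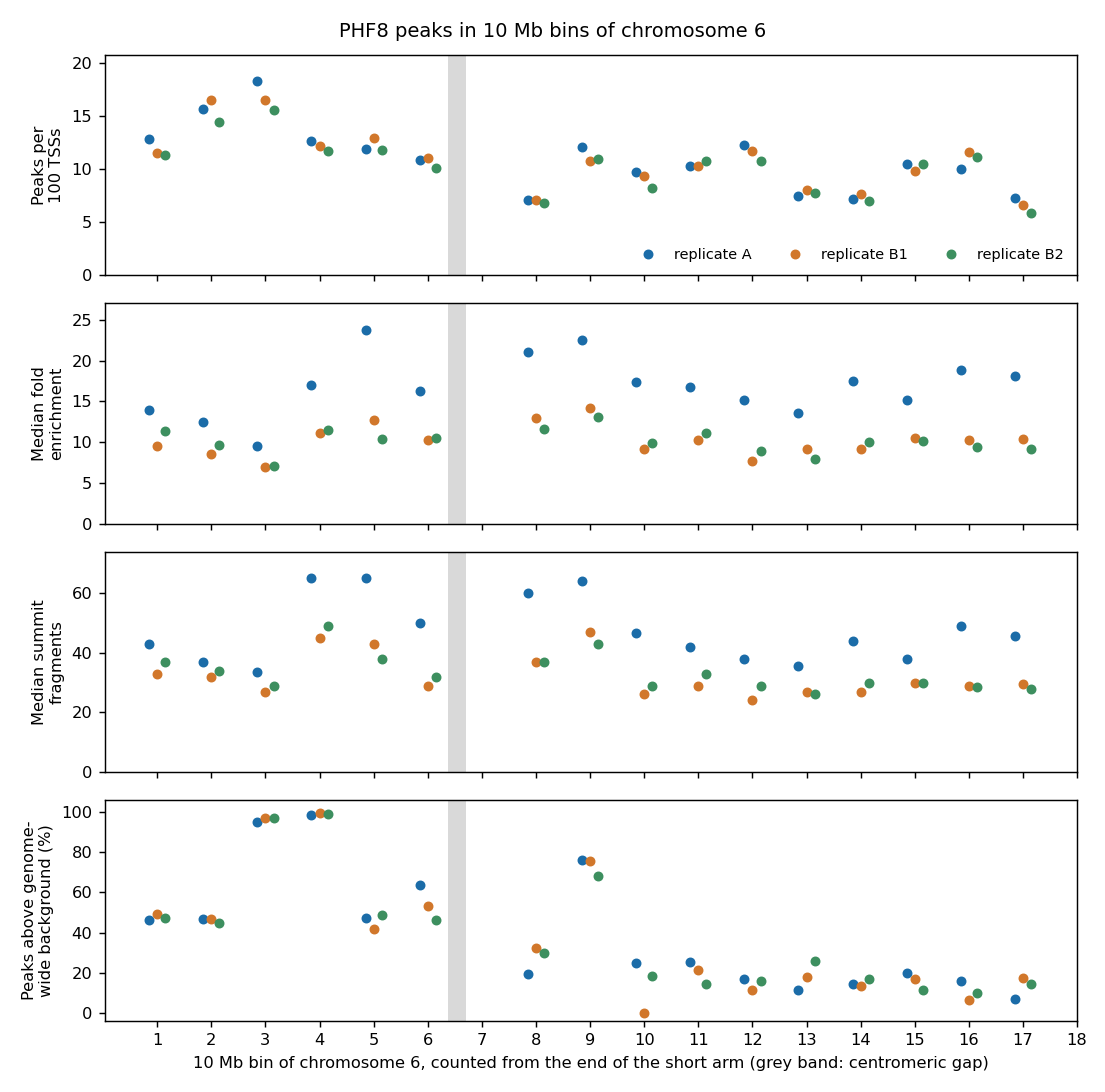
Peaks per 100 TSSs, median fold enrichment, median summit fragments and the percentage of peaks above the genome-wide background (panels from top to bottom) in 10 Mb bins counted from the end of the short arm, for bins with at least 20 peaks in the replicate, with a point for each replicate. Bin 3 has the highest mean number of peaks per 100 TSSs and the lowest fold enrichment of the short arm, and bins 3 and 4 have nearly all peaks above the genome-wide background.

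The arms also differed in where their peaks lay. Peaks within 1 kb of a TSS made up 82.8%, 85.5% and 87.6% of 6p peaks and 89.2%, 90.9% and 93.9% of 6q peaks. The share was lower on 6p in 3 of 3 replicates, by 6.03 percentage points on average (-6.03 ± 0.592, SD, n = 3; exact sign-flip permutation p = 0.25). CpG-island-like summits made up 67.8%, 71.7% and 73.3% of peaks on 6p and 82.3%, 86.6% and 88.4% on 6q. The arms stood near opposite ends of the 41 arms in this share, 6q at rank 2 and 6p at rank 39. Of regions found in all 3 replicates, 56 on 6p and 21 on 6q lay outside all TSS windows. Their median percentile of fold enrichment within a list was 28.7 on 6p and 30.9 on 6q, against 59 and 55.6 for regions at TSSs. Of the 56 on 6p, 16 lay at 25 to 34 Mb, 14 at 34 to 41 Mb and 10 within the first 10 Mb.

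Some regions outside TSS windows were as strong as promoters. The strongest on 6p, at chr6:35699019-35700335, was intergenic and 3617 bp from the nearest annotated TSS, that of FKBP5, a glucocorticoid-induced immunophilin gene. Its fold enrichment was 52.8, 32.4 and 32.3, at a mean percentile of 95.8 ± 0.493 (SD, n = 3). The next 2 on 6p had percentiles of 85.9 at chr6:53223718-53224886 and 84.2 at chr6:28072157-28073100. The strongest on 6q, at chr6:151710890-151711454, lay in an intron of ZBTB2, a zinc finger repressor gene, 1486 bp from its TSS, with a fold enrichment of 32.7, 18.4 and 16.8 and a percentile of 70.7 ± 2.85 (SD, n = 3). The next 2 on 6q had percentiles of 52.7 at chr6:157007864-157009076 and 46.6 at chr6:157695391-157696274. The leading region of each arm is printed as above, at chr6:35699902-35700052 and chr6:151711133-151711283, to show that both are CpG-rich, with 9 and 20 CG dinucleotides.
Intergenic near FKBP5: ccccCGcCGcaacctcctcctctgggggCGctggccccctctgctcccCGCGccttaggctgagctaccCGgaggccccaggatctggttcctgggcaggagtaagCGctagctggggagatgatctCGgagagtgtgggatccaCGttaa
Intron of ZBTB2: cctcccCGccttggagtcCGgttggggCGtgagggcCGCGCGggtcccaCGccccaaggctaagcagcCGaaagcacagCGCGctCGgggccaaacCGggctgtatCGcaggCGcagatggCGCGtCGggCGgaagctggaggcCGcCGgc

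Promoter binding of genes gave a further view of the density difference. A gene was counted as bound when a peak met the window of 1 kb around any of its TSSs. Of protein-coding genes, 63.9%, 62.7% and 62.2% were bound on 6p and 68.7%, 67.7% and 66.1% on 6q. In all 3 replicates 379 of 617 were bound on 6p (61.4%, 95% Wilson interval 57.5 to 65.2) and 283 of 431 on 6q (65.7%, 61.1 to 69.99), against 60.4% of protein-coding genes genome-wide. The 6p share was near the genome's, and the lower end of the 6q interval lay slightly above it. The share per replicate was lower on 6p by 4.58 percentage points on average (-4.58 ± 0.606, SD, n = 3; exact sign-flip permutation p = 0.25), although 6p carried more peaks per TSS. Of all annotated genes, 33.0% on 6p and 23.1% on 6q were bound in all 3 replicates, against 25.9% genome-wide. For long noncoding RNA genes the shares were 127 of 432 (29.4%) on 6p and 85 of 511 (16.6%) on 6q, and 19.9% genome-wide. Intervals and shares of genes cover counting error only.

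The lower share of bound protein-coding genes on 6p came with fewer CpG-island promoters. A CpG-island-like TSS was present in 66.1% of protein-coding genes on 6p, 79.1% on 6q and 72.5% genome-wide. Among those genes 333 of 408 (81.6%) were bound on 6p and 273 of 341 (80.1%) on 6q, so the difference per replicate turned to 1.04 percentage points. Among genes with no such TSS 46 of 209 (22.0%, 95% Wilson interval 16.9 to 28.1) were bound on 6p, 10 of 90 (11.1%, 6.15 to 19.3) on 6q and 9.65% genome-wide. Of the 46 on 6p, 14 were histone genes, 2 were HLA genes and 2 zinc finger genes. Of the other 176 genes of this kind on 6p, 28 (15.9%) were bound, among them the butyrophilin genes BTN2A1, BTN2A2, BTN3A1, BTN3A2 and BTN3A3, which code for regulators of T cells and were picked out after their values were seen. The bound protein-coding genes of 6p had a median percentile of fold enrichment of 68.4 and those of 6q 61.8.

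The histone genes of 6p form 2 clusters and code for the core and linker histones made during DNA replication. Of 51 such genes, 35 were bound in all 3 replicates, 4 in part of them and 12 in none, a share of 68.6% against 60.4% of all protein-coding genes. Genome-wide, 79.7% of protein-coding genes with a CpG-island-like TSS and 9.65% of those without one were bound. Of the 51 histone genes 30 had such a TSS, and of the 21 without one 14 were bound. The peaks of the bound histone genes were weak, with a median percentile of 35.6 and a range from 5.09 to 57.9, while the bound protein-coding genes of 6p had a median of 68.4. The lowest bound members were H2AC8, with a fold enrichment of 4.89, 3.86 and 4.00, and H3C7, with 5.61, 4.45 and 4.18. The highest were H2AC12 and H2BC12, which share a divergent promoter and 1 peak, with 23.5, 16.3 and 12.0. H3C1 and H4C1, H2BC4 and H2AC6, and H2BC11 and H2AC11 also had the same peak in each replicate. At H4C1, which starts at 26021877, the summits lay at 26020825, 26020763 and 26020803. Counts of bound histone genes, in all and by class, are therefore not counts of separate peaks. By class, 9 of 12 H2A, 9 of 13 H2B, 8 of 10 H3, 6 of 10 H4 and 3 of 6 H1 genes were bound. The cluster from 25723625 to 26285866 had 22 of 30 bound at a median percentile of 26.3, and the cluster from 27093676 to 27861669 had 13 of 21 at 43.4. Histone genes are close copies of each other, and how reads with several placements were assigned is not given in the sources used here, so single members are uncertain.

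The HLA genes, which code for the antigen-presenting molecules of the MHC, were bound in part. Of 19, 9 (47.4%) were bound in all 3 replicates, 5 in part of them and 5 in none, against 60.4% of protein-coding genes bound genome-wide. A CpG-island-like TSS was present in 10 of the 19. Bound class I genes included HLA-B, HLA-C, HLA-E and HLA-F, and HLA-G was not bound. HLA-E had a fold enrichment of 34.1, 24.8 and 21.5, at a percentile of 80.6 among the highest of the list. Bound class II genes included HLA-DMA, a peptide loading gene, with 31.0, 18.5 and 16.4 (percentile 69.5), and HLA-DPA1 with 16.7, 9.08 and 10.1 (percentile 43.0). The HLA-DMA values were those of the peak at the start of BRD2 (32936371), with summits at 32936161, 32936126 and 32936137. That peak is therefore not particular to HLA-DMA. The lowest were the class II gene HLA-DRA with 14.3, 3.0 and 3.88 and HLA-DMB, a class II peptide loading gene, with 16.8, 5.52 and 4.96. In both, replicate A stood well above B1 and B2 in fold enrichment. Class II genes made up all of the 5 bound in part, namely HLA-DRB5, HLA-DRB1, HLA-DQB1, HLA-DOA and HLA-DPB1, and 4 of the 5 not bound, and a difference between the classes was not tested. Of the 18 olfactory receptor genes and pseudogenes in the MHC neighbourhood 0 were bound in any replicate, and the single long-arm member was not bound either. Only 1 of the 18 had a CpG-island-like TSS, and genome-wide 9.65% of protein-coding genes without one were bound in all 3 replicates. Zinc finger genes of the KRAB, SCAN and BTB families were bound in 18 of 22 cases (81.8%) on 6p and 3 of 3 on 6q, led by ZNF76 (52.3, 39.6 and 36.5) and ZBTB9 (52.9, 34.3 and 32.2). Of these, 19 of 22 and 3 of 3 had a CpG-island-like TSS, and 79.7% of protein-coding genes with such a TSS were bound genome-wide. The olfactory receptor and zinc finger families were added after values had been seen.

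Cancer genes of both arms were mostly bound. On 6p 16 of 18 listed genes had a promoter peak in all 3 replicates, at a median percentile of 52.4. On 6q 16 of 19 matched genes did, at a median percentile of 51.0, and AIM1 was not matched in the annotation. Against 60.4% of protein-coding genes genome-wide, both shares were high, and nearly all listed genes had a CpG-island-like TSS (16 of 18 and 18 of 19). Genome-wide, 79.7% of protein-coding genes with such a TSS were bound in all 3 replicates. On 6p the highest was CCND3 with a fold enrichment of 42.5, 39.8 and 41.2 at a percentile of 95 ± 7.28 (SD, n = 3). FOXC1, a forkhead factor gene of the neural crest, followed with 47.1, 30.7 and 26.3, and DEK, a chromatin oncogene of 6p, had 41.7, 23 and 21.3. The lowest bound were SOX4 (7.75, 6.15 and 6.69) and PIM1, a kinase oncogene (13.1, 9.57 and 7.35), both inside the raised stretch. The listed genes CDKN1A and HMGA1 also lay inside it, at percentiles of 63.3 and 67.4, above the median of the list. NEDD9, a scaffold gene linked to melanoma metastasis, had a peak in A and B1 only (11.2 and 6.10), and these peaks did not overlap. IRF4, a melanocyte transcription factor gene, had none in any replicate. A missing peak does not tell an unbound promoter from binding too weak to be listed.

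On 6q the highest cancer genes were SESN1, a stress-induced sestrin gene, with a fold enrichment of 45.2, 26.3 and 23.7, and CCNC, which codes for the mediator cyclin C, with 34.2, 20.5 and 22.7. LATS1, a Hippo pathway kinase gene, had 35.8, 20.1 and 19.4. The lowest were PRDM1, a differentiation repressor gene (15.2, 6.48 and 6.57), and FYN, a Src-family kinase gene (17.9, 7.50 and 6.24). EPHA7, an ephrin receptor gene, had a peak in A and B1 only, and ESR1, the estrogen receptor gene, and ROS1, a receptor kinase gene, had none.

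Chromatin factor genes were bound without exception, 8 of 8 listed on each arm. All of them had a CpG-island-like TSS, against a genome-wide 79.7% bound among protein-coding genes of that kind and 60.4% among all. Their median percentile was 78.9 on 6p and 50.4 on 6q. On 6p the highest were BRPF3, a scaffold of histone acetyltransferases, with a fold enrichment of 40.0, 24.2 and 27.6, and RING1, a Polycomb ubiquitin ligase gene, with 41.5, 27 and 22.7. EHMT2, which codes for the H3 lysine 9 methyltransferase G9a, had 26.9, 27.2 and 34, the only one of these 3 with its lowest value in A. On 6q the highest were TBP, the TATA-binding protein gene (32.3, 17.7 and 17.7), and ARID1B, a chromatin remodeller gene (35.5, 16.7 and 14.1). The TBP values did not come from a single place. The summits in A and B1 lay at 170862249 and 170862253, upstream of the gene's start at 170863390, and that in B2 at 170863595. The lowest were JARID2, a Polycomb cofactor gene, on 6p (16.4, 6.47 and 11.7) and L3MBTL3, a methyl-lysine reader gene, on 6q (11.3, 5.46 and 6.90).

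Listed genes related to TGF-beta and BMP signaling, not all of them members of these pathways, were few on this chromosome. A CpG-island-like TSS was present in 3 of the 4 on 6p and all 5 on 6q, and the genome-wide shares bound were 79.7% of protein-coding genes with such a TSS and 60.4% of all. On 6p 2 of 4 were bound, PPARD, a nuclear receptor gene (29.6, 18.2 and 17.0), and ID4, a BMP-responsive inhibitor gene (12.0, 14.7 and 11.5). The ligand gene BMP6 had a peak in A only (8.96) and BMP5 had none. On 6q 4 of 5 were bound. They included genes of the kinase complex that relays TGF-beta signals outside the SMAD route, TAB2 (40.9, 20.5 and 26) and MAP3K7 (34.5, 30.0 and 21.3). CCN2, a matricellular TGF-beta target, had 21.8, 12.3 and 11.8 and CITED2, a transcriptional coregulator gene, 12.9, 7.84 and 6.28. THBS2, a matrix gene, had a weak peak in A and B1 (4.68 and 4.22).

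**Figure D5:**
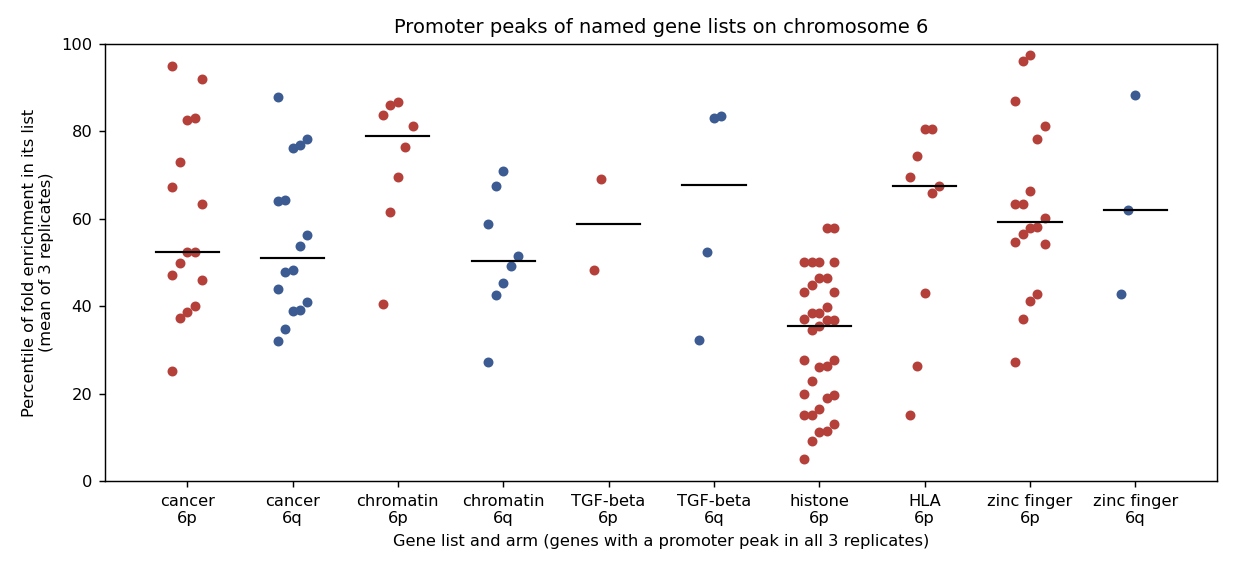
Percentile of fold enrichment within its peak list (vertical axis, mean of 3 replicates) of every listed gene with a promoter peak in all 3 replicates, by list and arm, with 6p in red, 6q in blue and a black bar at the median. Histone genes range from 5.09 to 57.9, and chromatin factor genes have a median of 78.9 on 6p and 50.4 on 6q.

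Short motifs were counted in the 201 bp centred on each summit, on both strands, as a description. The GC box GGGCGG, the SP1 motif, was present in 37.8% ± 1.77 (SD, n = 3) of 6p peaks and 47.4% ± 1.79 of 6q peaks, and in 42.4% of all peaks. CCAAT was present in 13.3% and 12.9%, and in 11.5% of all peaks. The E-box CACGTG was present in 3.26% ± 0.698 and 3.99% ± 0.463, and in 3.39% of all peaks. The order of the GC box matched that of CpG-island-like summits, with which it shares letters, and CCAAT differed between the arms by less than its spread between replicates. The CRE motif TGACGTCA was in 0.40% ± 0.193 of 6p peaks, 0% of 6q peaks and 0.117% of all peaks. These shares rest on very few peaks, so no difference between the arms is read from them. The palindromic core motif of NRF1, the ETS motif CCGGAAGT and the YY1 motif AAGATGGC were in at most 1.37% of the peaks of either arm, and in 0.0609%, 0.549% and 1.28% of all peaks.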

How the data were processed

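PHF8 ChIP-seq peak lists of 3 replicates were analysed, and the 2 input libraries were not analysed here on their own. The authors aligned reads to hg19 with Bowtie2 and called narrow peaks with MACS2 in each replicate against input, without pooling. The submitters' processing notes also name bcl2fastq and Picard. The release of MACS2 and the read totals are not given in the sources used here. The deposited fold enrichment is a linear ratio at the summit. The authors' p-values and q-values are deposited as −log10 values. The deposited score repeats the q-value and was not used. All peaks passed a q-value of 0.05 and a fold enrichment of 1.5.

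Members and gene lists were chosen with earlier results of these data known. Summit fragments n and expected background λ were recovered by solving the deposited fold enrichment, (n + 1)/(λ + 1), together with the Poisson p-value. This gave whole fragments for 100% of peaks within 0.001 on the −log10 scale, and the recovery was tested on simulated data. Genome-wide values of λ were 1.57 (A), 1.93 (B1) and 2.04 (B2) fragments, and a peak counted as above if its λ was over 0.5% higher. The lowest summits held 8 to 10 fragments, which limits detection. Fragments are not corrected for amplification.

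Transcript starts came from GENCODE release 44 (GRCh37 lift) and gave 220349 pairs of gene and start on the autosomes and X. GRCh37 and hg19 are the same build, and 0 peaks extended beyond the end of their chromosome. Sequences were read from GRCh37. Arms other than those of chromosome 6 were split at the longest run of N. A percentile is the rank of a peak's fold enrichment within its list. The values of a gene came from 1 peak per replicate that met a window of its TSSs. That peak was not always at the same place. At TBP, PIM1, NEDD9, L3MBTL3, CITED2 and H3C7, among others, the peaks of some replicates did not overlap. Regions merged peaks that overlapped by at least 1 bp.

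Arms were compared within each replicate, and the 3 differences went into a two-sided permutation of signs, enumerated exactly (sign-flip test). Named genes were those of the lists (cancer, chromatin and TGF-beta related genes written from general knowledge, and histone and HLA genes by symbol), the 5 strongest regions and the 3 strongest regions outside TSS windows of each arm, and the strongest promoter of the densest and sparsest bins. Alternatives changed the peaks used, the TSSs, the window, the denominator, the bin size and the replicates. Python 3.11.15, numpy 2.4.6, pandas 2.3.3, scipy 1.17.1 and matplotlib 3.10.9 were used. Some items are not reported here.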

Additional observations from a re-analysis of the deposited data

How the results depend on the processing

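Of 67 alternatives and 12 more added after values had been seen, 3 and 2 turned the direction of a result. A further 1 of the 67, the use of 5 Mb bins, moved the sparsest bins. The others kept the direction of the mean. No arm difference could pass 0.05 under any alternative, so a call that did not change says nothing of stability. Sizes did change by more than the spread between replicates. For peaks per TSS the log2 ratio went from 0.54 to 1.42 per Mb, 0.36 per TSS of protein-coding genes and 0.44 for peaks at TSSs alone, and that of mean background from 0.41 to 0.26 without 25 to 34 Mb and 0.11 without 21 to 41 Mb. That of peak width went from 0.01 to 0.18 and 0.15 without these parts, 0.17 with CpG-island-like summits and 0.07 at TSSs. That of fold enrichment turned to 0.0529 without the part at 25 to 34 Mb, to 0.0625 without the stretch at 21 to 41 Mb and to 0.19 with CpG-island-like summits alone. The difference in bound protein-coding genes turned to 1.04 percentage points among genes with a CpG-island-like TSS. Leaving out a replicate moved the log2 ratio of peak width between -0.0150 and 0.0496 and turned its sign without B2. The log2 ratio of the densest to the sparsest bin was 1.37 with 10 Mb bins and 1.56 with 5 Mb bins. With 5 Mb bins the sparsest bin of 6p started at 5 Mb and that of 6q at 130 Mb. With 10 Mb bins they started at 50 and 160 Mb, so the sparsest bins depended on bin size. The densest 10 Mb bin of 6p was 20 to 30 Mb per TSS and 30 to 40 Mb per annotated gene. Without a replicate the log2 ratio of peaks per TSS ranged from 0.52 to 0.56, that of summit fragments from 0.17 to 0.21 and that of mean background from 0.41 to 0.42. The cause of these changes was not tested. The fragments divided by the list mean gave the same ratio by construction. No paired analysis was possible because the input libraries were not analysed here on their own. The arm comparisons are paired in themselves, since each was made within a replicate. Summits under 8 fragments were not listed in any replicate, so weaker binding was not detectable.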

Other observations

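In peaks per TSS the single densest 5 Mb bin of the long arm came close to that of the short arm. At 115 to 120 Mb the long arm held 33, 31 and 31 peaks on 174 TSSs, or 18.2 ± 0.664 peaks per 100 TSSs (SD, n = 3), and at 25 to 30 Mb the short arm held 18.8 ± 1.28. The neighbouring long-arm bin at 110 to 115 Mb had 8.36 ± 0.906. The bins at 115 and 25 Mb differed in kind, with CpG-island-like summits in 83.3% and 64.4% of peaks. Median summits were alike in fragments, at 31.0 and 28.7. Bound genes at 115 to 120 Mb included ASF1A, a histone chaperone gene, MCM9, a replication helicase gene, and RWDD1, at percentiles of 36.5, 61.7 and 76.2, named after their values were seen.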
